A study of Mus musculus with 6 samples.

Results

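The circadian clock genes were examined in mouse renal cortex by RNA sequencing. They are the 10 genes Per1, Per2, Per3, Cry1, Cry2, Nr1d1, Nr1d2, Dbp, Tef and Ciart, taken from the table by symbol, and 10 of 10 were found among the 19176 rows of the expression table. All 6 libraries came from wild-type male C57BL/6J mice, 8 weeks old at the start, whose left renal pedicle was clamped (unilateral ischemia-reperfusion injury, UIRI) and whose right kidney was removed the day before collection. The 3 mice of the UIRI group received vehicle, and the 3 mice of the UIRI + BA group received BA (named brucine A in the labels and bruceine A in the study) at 1 mg/kg each day, by intraperitoneal injection as the labels have it. Tissue of both groups was taken on day 14. The comparison asks how these transcripts differed with BA in the injured kidney, and no library of uninjured kidney was analysed here.

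The mammalian clock is a transcriptional feedback loop. The paired activators CLOCK and BMAL1 (gene Arntl), or NPAS2 in place of CLOCK, bind E-box elements and drive Per, Cry, Nr1d1, Nr1d2, Dbp, Tef and Ciart, and the PER and CRY proteins return to repress the activators. The REV-ERB receptors encoded by Nr1d1 and Nr1d2 repress Arntl, so that Arntl and its targets peak at opposite times of day. The kidney holds such a clock in its tubule cells, where it is known for rhythms in sodium, water and solute transport. Because these transcripts cycle, their level depends on the hour at which a kidney is taken. Mice were kept in equal spans of light and dark, but the hour of collection is not given in the sources used here, and its part in the values that follow was not tested.

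Upstream sequences of 4 members are shown because they hold the letters of elements that clock factors can bind. They are the 250 bases before a RefSeq transcription start (GRCm38.p6), 5′ to 3′ on the gene's strand. Capitals mark the E-box CACGTG in Per1 (chr11:69098699-69098948, plus strand), Tef (chr15:81802423-81802672, plus strand) and Ciart (chr3:95882229-95882478, minus strand), and the D-box TTATGTAA, the element that DBP, TEF and HLF bind, in Per3 (chr4:151044666-151044915, minus strand).
Per1: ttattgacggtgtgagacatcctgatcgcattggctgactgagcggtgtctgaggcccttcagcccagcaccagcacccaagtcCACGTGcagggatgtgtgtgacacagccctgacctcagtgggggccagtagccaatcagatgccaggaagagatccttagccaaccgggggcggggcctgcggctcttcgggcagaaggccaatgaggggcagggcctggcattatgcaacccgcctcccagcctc
Tef: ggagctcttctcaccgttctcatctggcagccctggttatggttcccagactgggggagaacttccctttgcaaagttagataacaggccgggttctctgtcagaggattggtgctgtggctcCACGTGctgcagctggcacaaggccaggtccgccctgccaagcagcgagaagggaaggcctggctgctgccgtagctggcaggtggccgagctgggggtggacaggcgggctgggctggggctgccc
Ciart: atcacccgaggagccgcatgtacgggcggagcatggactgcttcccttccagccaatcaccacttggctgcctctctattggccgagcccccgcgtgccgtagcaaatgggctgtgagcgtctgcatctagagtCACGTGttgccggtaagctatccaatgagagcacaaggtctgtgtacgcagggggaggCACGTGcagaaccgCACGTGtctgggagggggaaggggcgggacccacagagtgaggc
Per3: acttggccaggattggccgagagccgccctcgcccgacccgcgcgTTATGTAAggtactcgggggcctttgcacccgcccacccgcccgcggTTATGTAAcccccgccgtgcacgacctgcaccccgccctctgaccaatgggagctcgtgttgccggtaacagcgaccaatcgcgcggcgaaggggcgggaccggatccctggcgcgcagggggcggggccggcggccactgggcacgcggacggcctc

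Windows were available for 9 of the 10 members (11 windows, Per2 not among them), and both strands were searched. The E-box CACGTG stood in windows of 4 members, namely Per1, Cry1, Tef and Ciart, with 3 copies in Ciart, against 7.57% of the 16819 windows of all genes. The variant E-box CACGTT stood in Cry1, Cry2 and Nr1d1, against 4.2% of windows. The D-box TTATGTAA was present in 1 member, Per3, with 2 copies, against 0.565% of windows, and the D-box TTACGTAA, held by 0.131% of windows, was in none. The ROR element TAGGTCA (1.84% of windows) and the cyclic AMP element TGACGTCA (2.28%) were found in 0 members. These shares are of single windows, whereas a member with 2 windows was counted if either held a match. The second window of Per1, not shown, held none. A match describes the letters and shows no binding, and a window without one says nothing of the factor.

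Reads on genes ran from 16510720 to 38124164 in a library, and UIRI replicate 3, the deepest, held 2.04 times the median of the other 5. Markers of the proximal tubule, the main segment of cortex, were detected in every library, at widely differing levels. The phosphate transporter Slc34a1 was at 7708 to 14182 normalized counts (reads divided by the size factor of the library), and Slc22a8 at 58.5 to 266.

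With BA, 9 of the 10 members were higher and 1, Cry1, was lower. Their log2 fold changes (UIRI + BA minus UIRI) had a median of 0.28, and those of all genes -0.01. The 3 libraries of one group lay wholly above the 3 of the other for 5 members, Per2, Per3, Nr1d1, Nr1d2 and Tef, all higher with BA. Over all genes 7.45% were separated that way, and 6.96% in the opposite direction. These same 5 members had an unadjusted limma p below 0.05, against 5.67% of all genes higher and 4.61% lower at that level. After adjustment over all 19176 rows, 0 members passed 0.05 with limma, as did 0.0% of all genes (1971 at an unadjusted p below 0.05). edgeR called 0 of the 17155 genes it tested, with 1703 at an unadjusted p below 0.05. DESeq2 on the recovered reads, the tool the study used, passed 3 members (Tef, Per3 and Nr1d2) at an adjusted p below 0.05, each higher with BA. Of the 15826 genes to which it gave an adjusted p, 1.03% were called higher. An exact two-sided permutation test of 3 against 3 libraries cannot give a p below 0.1.

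**Figure D1:**
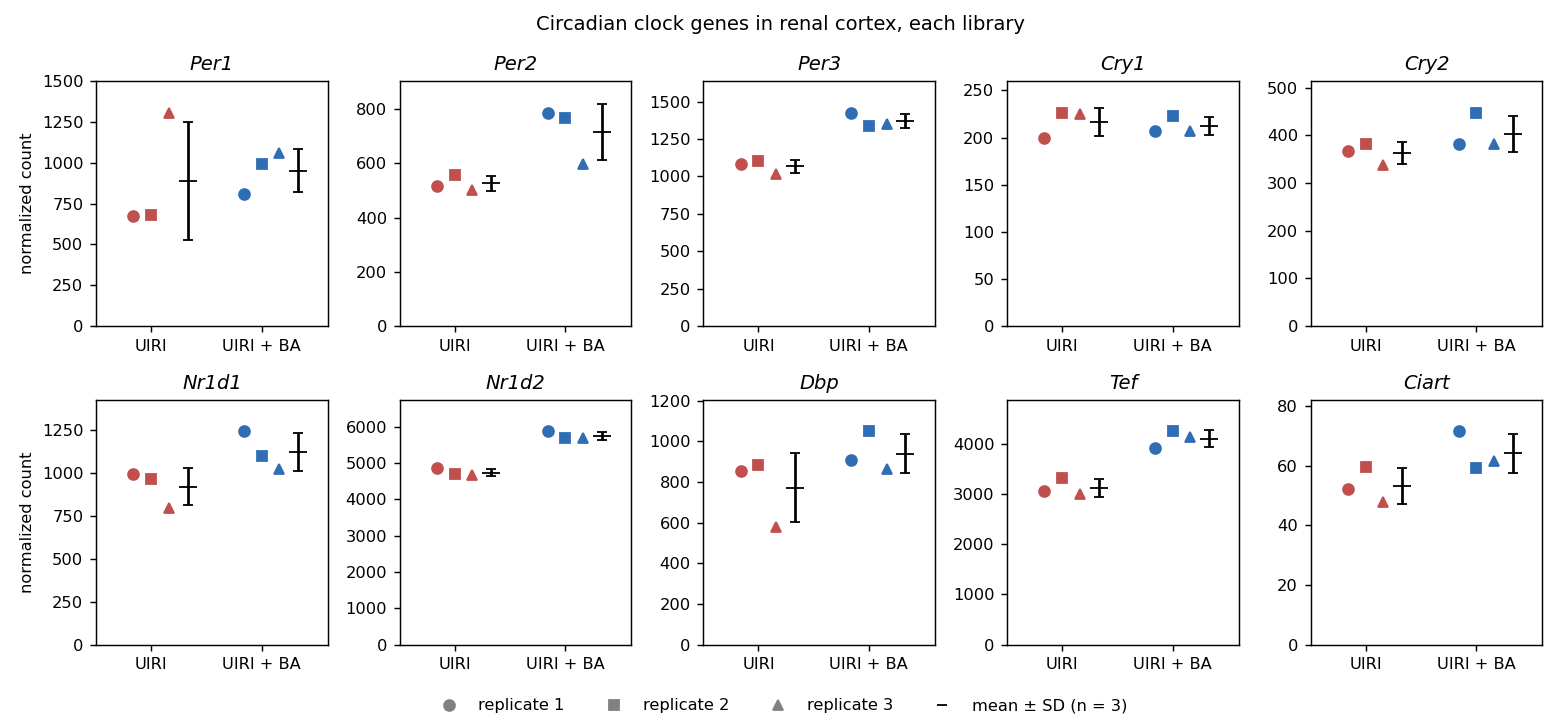
Normalized counts (reads divided by the size factor of the library, vertical axes from 0) of the 10 clock genes in each of the 3 UIRI (red) and 3 UIRI + BA (blue) libraries, with the mean ± SD beside each group. Per2, Per3, Nr1d1, Nr1d2 and Tef show no overlap between the groups, and UIRI replicate 3 stands far above its group in Per1 and below it in Dbp.

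The plot of normalized counts in each library shows the period genes first, whose proteins are the negative limb of the loop. Per1 (chr11:69095217-69109960, plus strand, GRCm38) stood at 676, 683 and 1304 normalized counts in UIRI replicates 1 to 3 and at 807, 992 and 1058 in UIRI + BA replicates 1 to 3. The groups overlapped through UIRI replicate 3, the highest library of the 6, and the log2 fold change was 0.16 (SE 0.23, 95% interval -0.36 to 0.69, limma adjusted p = 0.810). With each library left out in turn it ran from 0.0034 (without UIRI replicate 1) to 0.48. The highest value was without UIRI replicate 3, with a limma adjusted p of 0.0474, and the adjusted p ranged from 0.0474 to 1.00 over the alternatives. Per1 is known as an immediate early gene too, and UIRI replicate 3 held the highest count of the 6 libraries for 4 of the 9 immediate early genes listed. These were Btg2, Fos (816, against 419 to 586 in the other 5), Egr1 (5265, against 2503 to 4467) and Nr4a1 (750, against 236 to 459). For the other 5 (Fosb, Jun, Junb, Atf3 and Ier2) a treated library was highest, and whether any of them share a source with Per1 was not tested. UIRI replicate 3 was also the highest for 6 of 11 modifiers of clock proteins and 4 of 8 glucocorticoid-responsive genes. It was the highest for 0 of 12 proximal tubule markers and for 10 of 10 urothelial markers. The share over all genes was not counted, so these counts cannot be called particular to any list.

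Per2 (chr1:91415982-91459324, minus strand), the period gene whose phosphorylation tunes the length of the cycle, was at 515, 558 and 503 normalized counts in UIRI and at 785, 766 and 596 with BA. The groups did not overlap, although replicate 3 of the UIRI + BA group came near the highest UIRI library. The mean was 1.36-fold higher with BA (526 ± 28.7 against 716 ± 104, SD, n = 3), a log2 fold change of 0.44 (SE 0.12, limma adjusted p = 0.306).

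Per3 (chr4:151003652-151044665, minus strand), the period gene least needed for rhythm itself and the one with 2 D-boxes in the sequence above, was more even. It stood at 1082, 1100 and 1019 normalized counts in UIRI and at 1424, 1338 and 1351 with BA. The lowest treated library, at 1338, was well above the highest vehicle library, at 1100. The log2 fold change was 0.36 (SE 0.07, 95% interval 0.19 to 0.53, limma adjusted p = 0.225). DESeq2 gave an adjusted p of 0.0260, and the adjusted p ran from 0.0260 to 0.9995 over the alternatives. The 0.9995 came without UIRI replicate 1, in a limma fit where 0 genes passed. There the log2 fold change of Per3 was 0.37 and its unadjusted limma p 0.0037.

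The cryptochromes, the strongest repressors of CLOCK and BMAL1, had the smallest log2 fold changes of the 10. Cry1 (chr10:85131700-85185064, minus strand) was at 199, 226 and 225 normalized counts in UIRI and at 207, 223 and 207 with BA, with the groups interleaved. Its log2 fold change was -0.03 (SE 0.11, 95% interval -0.28 to 0.22, limma adjusted p = 0.937), and it was 0.0024 without UIRI replicate 2. Cry2 (chr2:92403646-92434043, minus strand) was at 367, 382 and 337 in UIRI and at 381, 447 and 381 with BA. These ranges met at about 381 counts, and the log2 fold change was 0.15 (SE 0.11, 95% interval -0.09 to 0.39, limma adjusted p = 0.624), or 0.07 without UIRI + BA replicate 2 and 0.10 without UIRI replicate 3. A p that misses the threshold does not show the groups to be equal.

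The REV-ERB receptors, heme-binding nuclear receptors that repress Arntl, were both separated by group. Nr1d1 (chr11:98767932-98775333, minus strand) was at 997, 966 and 796 normalized counts in UIRI and at 1243, 1098 and 1026 with BA. The gap between the groups was narrow, from 997 to 1026, and the log2 fold change was 0.29 (SE 0.11, limma adjusted p = 0.448). It was 0.19 without UIRI replicate 3, the lowest of the 6. Nr1d2 (chr14:18204054-18239127, minus strand) was at 4855, 4696 and 4669 in UIRI and at 5873, 5680 and 5696 with BA. Relative to its level its libraries were the tightest of all members, with 4740 ± 100.4 against 5750 ± 107 (SD, n = 3), and the log2 fold change was 0.28 (SE 0.07, 95% interval 0.13 to 0.43, limma adjusted p = 0.263). DESeq2 gave Nr1d2 an adjusted p of 0.0449, within a range of 0.0449 to 0.9995 over the alternatives. The upper end came without UIRI replicate 1, with a log2 fold change of 0.30 and an unadjusted limma p of 0.0079.

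Nr1d1 shares 263 exonic bases with Thra on the opposite strand, and the setting for strand in the authors' counting is not given in the sources used here. Thra, the thyroid hormone receptor alpha gene, was lower with BA, at 1279, 1264 and 1200 normalized counts in UIRI and 1106, 1065 and 1038 with BA (log2 fold change -0.22, SE 0.07, limma adjusted p = 0.389). Nr1d1 was thus higher where its antisense neighbour was lower.

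The PAR bZIP factors DBP and TEF carry the clock to its output genes through D-boxes. Dbp (chr7:45705088-45710203, plus strand) was at 855, 883 and 578 normalized counts in UIRI and at 907, 1049 and 863 with BA. The groups overlapped between 863 and 883 counts, and UIRI replicate 3 was far below the other 5 libraries. The log2 fold change was 0.30 (SE 0.16, 95% interval -0.06 to 0.66, limma adjusted p = 0.539) and 0.11 without UIRI replicate 3. Dbp shares 539 exonic bases with Sphk2 on the opposite strand, whose counts overlapped between groups (535 to 677 in UIRI, 524 to 583 with BA).

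Tef (chr15:81802421-81826863, plus strand) had the smallest p of the 10 members. It was at 3059, 3326 and 3000 normalized counts in UIRI and at 3924, 4253 and 4144 with BA. The lowest treated library, at 3924, stood far above the highest vehicle library, at 3326. The mean was 1.31-fold higher with BA, with a log2 fold change of 0.39 (SE 0.07, 95% interval 0.22 to 0.56, limma adjusted p = 0.225). DESeq2 gave an adjusted p of 0.00550, and the alternatives ran from 0.00550 to 0.9995. The upper end came without UIRI replicate 1, with a log2 fold change of 0.38 and an unadjusted limma p of 0.0034.

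Ciart (chr3:95878503-95882251, minus strand), which encodes the repressor CHRONO, was the least expressed member, with 46 to 87 reads in a library. It was at 52.1, 59.6 and 47.6 normalized counts in UIRI and at 71.4, 59.2 and 61.6 with BA. The groups just overlapped, between UIRI replicate 2 and UIRI + BA replicate 2. The log2 fold change was 0.27 (SE 0.18, 95% interval -0.14 to 0.67, limma adjusted p = 0.612), and at this depth counting error adds to the spread.

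**Figure D2:**
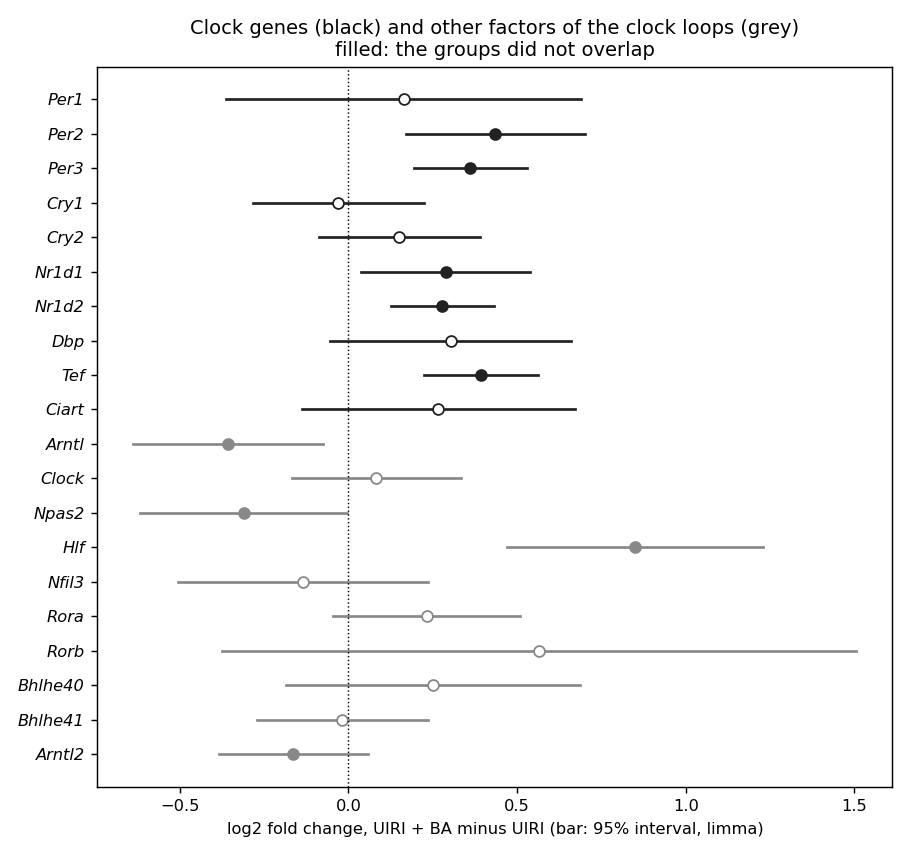
Log2 fold change (UIRI + BA minus UIRI, horizontal axis) with its 95% interval from limma for the 10 clock genes (black) and 10 other factors of the clock loops (grey), with filled points where the groups did not overlap. The members lie to the right of 0 except Cry1 at -0.03, whereas Arntl and Npas2 lie to the left at -0.36 and -0.31.

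UIRI replicate 3 was the lowest of the 6 libraries for 8 of the 10 members. It was the highest for Per1. UIRI + BA replicate 1 was the highest for 5 members and replicate 2 for 3. Without UIRI replicate 3 the median of the members was 0.23 and 3 of them (Tef, Per3 and Per1) had a limma adjusted p below 0.05, in a fit in which 3.22% of all genes were called higher. With each library left out in turn, 9 members stayed above 0, Cry1 being the exception.

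Of the 3 activators of the loop, Arntl and Npas2 were lower with BA and Clock was not. Arntl, which encodes BMAL1, was at 299, 256 and 342 normalized counts in UIRI and at 232, 230 and 234 with BA. The groups did not overlap, and the 3 treated libraries were nearly level. The log2 fold change was -0.36 (SE 0.12, limma adjusted p = 0.418). Npas2, the partner that can stand in for CLOCK, was at 163, 174 and 164 in UIRI and at 122, 129 and 155 with BA (log2 fold change -0.31, SE 0.14, limma adjusted p = 0.486), again with no overlap. Clock, whose transcript cycles weakly in most tissues, had a log2 fold change of 0.08 (limma adjusted p = 0.795). Of the 3 activators, 2 were at an unadjusted p below 0.05 and lower, and 0 passed adjustment with limma, with DESeq2 or with limma without UIRI replicate 3.

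Because a ratio of transcripts within a library does not depend on its depth, each member was also set against Arntl in the same library. All 10 members were higher relative to Arntl with BA, and the groups did not overlap for 9 of them, Per1 being the exception. Of all other genes 45.0% were separated and higher in the same way, since Arntl itself was separated and lower, so the count in part restates Arntl. Per3 exceeded Arntl by 1.85, 2.10 and 1.57 log2 units in UIRI and by 2.61, 2.53 and 2.53 with BA. Cry1, whose own counts interleaved, was at -0.583, -0.181 and -0.606 log2 units relative to Arntl in UIRI and at -0.164, -0.048 and -0.177 with BA. Its groups were thus separated by a negligible gap, between -0.181 and -0.177. UIRI replicate 2, where Arntl was lowest among the vehicle libraries, lay closest to the treated group for every member but Per1. Relative to Npas2, also separated and lower, all 10 were higher and 8 did not overlap, against 33.4% of all other genes. These ratios all carry the same Arntl or Npas2 values, so they are not separate results. A gene comes out higher whenever its own log2 fold change is above that of Arntl (-0.36) or Npas2 (-0.31). The share of all genes merely higher in this way was not counted.

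**Figure D3:**
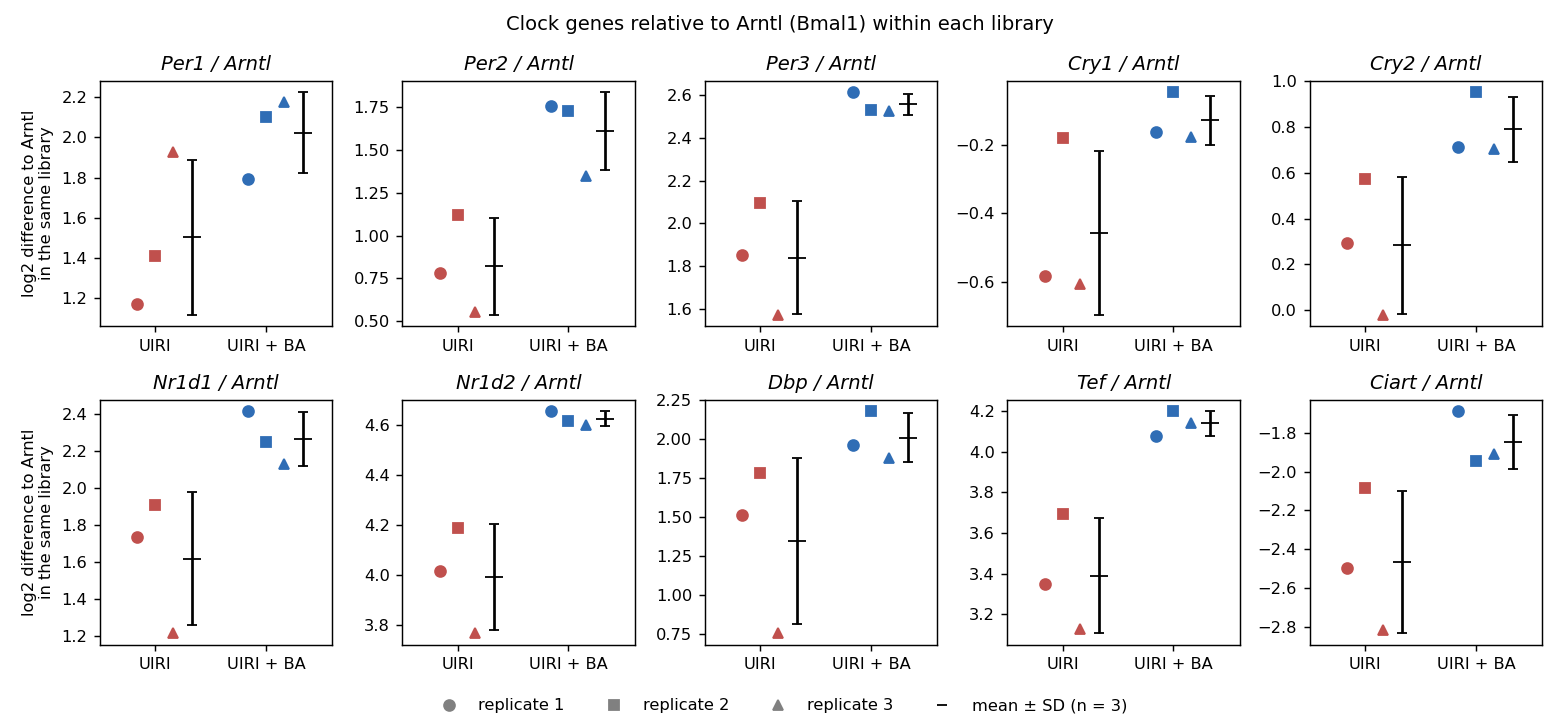
Log2 difference between each clock gene and Arntl within the same library (vertical axes, which do not start at 0) for 3 UIRI (red) and 3 UIRI + BA (blue) libraries, with mean ± SD. The groups do not overlap for 9 of 10 genes, as for 45.0% of all other genes, since Arntl itself is lower with BA. In Per1, UIRI replicate 3 at 1.93 lies above UIRI + BA replicate 1 at 1.80.

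Of 7 other loop factors, 4 were higher and 3 lower (median 0.23 on the log2 scale). Hlf, the remaining PAR bZIP factor and partner of Dbp and Tef, differed most clearly, at 250, 235 and 355 normalized counts in UIRI and 530, 424 and 546 with BA. Its groups did not overlap, and the log2 fold change was 0.85 (SE 0.17, limma adjusted p = 0.225). DESeq2 gave Hlf an adjusted p of 0.00289, from a range of 0.00289 to 0.9995 over the alternatives. The upper end came without UIRI replicate 1, with a log2 fold change of 0.78 and an unadjusted limma p of 0.0032. Rora, an activating receptor that competes with the REV-ERBs, overlapped between groups (log2 fold change 0.23, limma adjusted p = 0.543), and Rorb had 4.50 to 17.5 normalized counts. Bhlhe40 (0.25) and Bhlhe41 (-0.02), E-box repressors, Nfil3 (-0.13), the repressor at D-boxes, and Arntl2 (-0.16), the BMAL1 paralog, had limma adjusted p-values of 0.576 or more, and Arntl2 alone of them was separated, lower with BA. Without UIRI replicate 3, its highest library, Bhlhe40 was at 0.51 and passed adjustment, as did Hlf at 1.03.

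Among 11 enzymes and partners that modify clock proteins, 9 were higher and 2 lower (median 0.06 on the log2 scale). Only Usp2, a deubiquitinase that is itself under clock control, was at an unadjusted p below 0.05 (log2 fold change 0.34, limma adjusted p = 0.447), and its groups overlapped. Without UIRI replicate 3 its log2 fold change was 0.49 and it passed adjustment. The casein kinases Csnk1d (0.06), Csnk1e (-0.06) and Csnk2a1 (0.12), the ubiquitin ligase parts Fbxl21 (0.06), Btrc (0.02) and Fbxw11 (0.12), and Gsk3b (0.12), Usp14 (0.10), Timeless (-0.05) and Nono (0.00) had log2 fold changes between -0.06 and 0.12.

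Of 12 output genes of the clock, 11 were higher and 1 lower (median 0.32 on the log2 scale), and 6 were at an unadjusted p below 0.05, all higher. None passed adjustment in limma with all libraries (0 of 12), Pdk4 alone passed with DESeq2, and Wee1, Slc9a3 and Slc6a6 passed in limma without UIRI replicate 3, at log2 fold changes of 0.52, 0.64 and 0.45. The 6 were Pdk4, a kinase that restrains glucose oxidation (397, 423 and 297 normalized counts against 710, 601 and 486, log2 fold change 0.69, limma adjusted p = 0.269), Wee1, a cell cycle kinase (0.37), Ypel2 (0.30), Por, the reductase of cytochrome P450 (0.30), Slc9a3, the proximal sodium-hydrogen exchanger (0.43), and Slc6a6, the taurine transporter (0.33). Pdk4, Wee1 and Ypel2 did not overlap between groups. Ces1g had the highest value (0.79, from 5.62 to 18.6 counts) and Tspan4 the lowest (-0.07).

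Hormones and temperature also reset tissue clocks, so those lists stand beside the members. Of 8 glucocorticoid-responsive genes 7 were higher, with a median of 0.27, and Zbtb16 (log2 fold change 1.18, limma adjusted p = 0.291), Fkbp5 (0.37) and Klf9 (0.33) were higher and Cebpd (-0.28) lower at an unadjusted p below 0.05. Zbtb16, a zinc finger factor, was at 43.1, 51.7 and 61.9 normalized counts in UIRI and 200.4, 88.3 and 93.9 with BA. Of 7 temperature-responsive genes, 5 were higher, all of them heat shock genes at an unadjusted p below 0.05 and with no overlap, from Hspa8 (0.31), Dnajb1 (0.33), Hspa1b (0.38) and Hspa1a (0.52) to Hsph1 (0.62). UIRI + BA replicate 1 was the highest library for all 5, and without it Hspa1a was at 0.24, Hspa1b at 0.22 and Dnajb1 at 0.20. The cold-inducible gene Cirbp was lower without overlap, at 2017, 1670 and 1633 in UIRI and 1116, 1301 and 1359 with BA (log2 fold change -0.49, limma adjusted p = 0.242), and Rbm3, the other cold-inducible gene, overlapped (-0.13). Of 9 immediate early genes, 4 were higher and 5 lower with a median of -0.01 and 0 at an unadjusted p below 0.05, from Nr4a1 (-0.26, or 0.14 without UIRI replicate 3) to Fosb (0.42). In these 3 lists 0 genes passed adjustment in limma with all libraries. DESeq2 passed Zbtb16 and Hspa8 higher and Cirbp lower, where 0.316% of the 15826 genes with an adjusted p were called lower. Without UIRI replicate 3 limma passed Klf9 (0.47), Errfi1 (0.78) and Hsph1 (0.80) higher and Cirbp (-0.55) lower, where 1.79% of all genes were called lower. The part of these genes in the values of the clock genes was not tested.

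Markers of cell types in the cortex stand beside the clock genes. All 12 proximal tubule markers were higher with BA, 11 of them at an unadjusted p below 0.05. The median was 0.74 on the log2 scale, and their summed counts were 49897 to 65061 in UIRI and 69059 to 120893 with BA. Kap made up much of these sums, and its groups overlapped (29077 to 32021 in UIRI, 27223 to 76195 with BA). Of the 12 markers, 6 were separated by group, against 7.45% of all genes in that direction. All 8 fibroblast and myofibroblast markers were lower, with a median of -0.28, and 4 were at an unadjusted p below 0.05. Their summed counts were 70379 to 86271 against 50590 to 69117, of which Col3a1 made up much (34494 to 46022 against 22478 to 34434). Of the 8 markers, 3 were separated by group, against 6.96% of all genes in that direction. The mean log2 value of the list overlapped, with UIRI replicate 2 at 0.02 and UIRI + BA replicate 3 at 0.12 from its centre. All 10 leukocyte markers were lower as well, with a median of -0.26, Itgam being the 1 at an unadjusted p below 0.05, and their sums overlapped (78685 to 120013 against 77382 to 101615). Thick limb (6 genes, median 0.11) and collecting duct markers (7 genes, median 0.28) overlapped in their sums, and Egf (0.53) was the 1 of both lists at an unadjusted p below 0.05. DESeq2 passed 6 of the proximal tubule markers, higher, and Col1a1 and Col3a1, lower. Without UIRI replicate 3, limma passed 10 of the 12 proximal tubule markers, Egf and the water channel gene Aqp2 higher, and Cd68, Itgam, C1qa and Col1a1 lower. The 4 red blood cell genes were lower (median -0.17), and of the adipose and muscle genes the table held 1, Fabp4 (0.07). The 10 urothelial markers, all lower with BA (median -1.77, 0 at an unadjusted p below 0.05), with summed counts of 211 to 775 in UIRI and 88.9 to 485 with BA, were highest in replicate 3 of each group, and Upk2, Krt14 and Upk3a were listed at 0 in at least 1 treated library. In bulk cortex a difference in the number of cells of a type and one in the RNA of each cell cannot be told apart, and the part of cell makeup in the values of the clock genes was not tested.

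**Figure D4:**
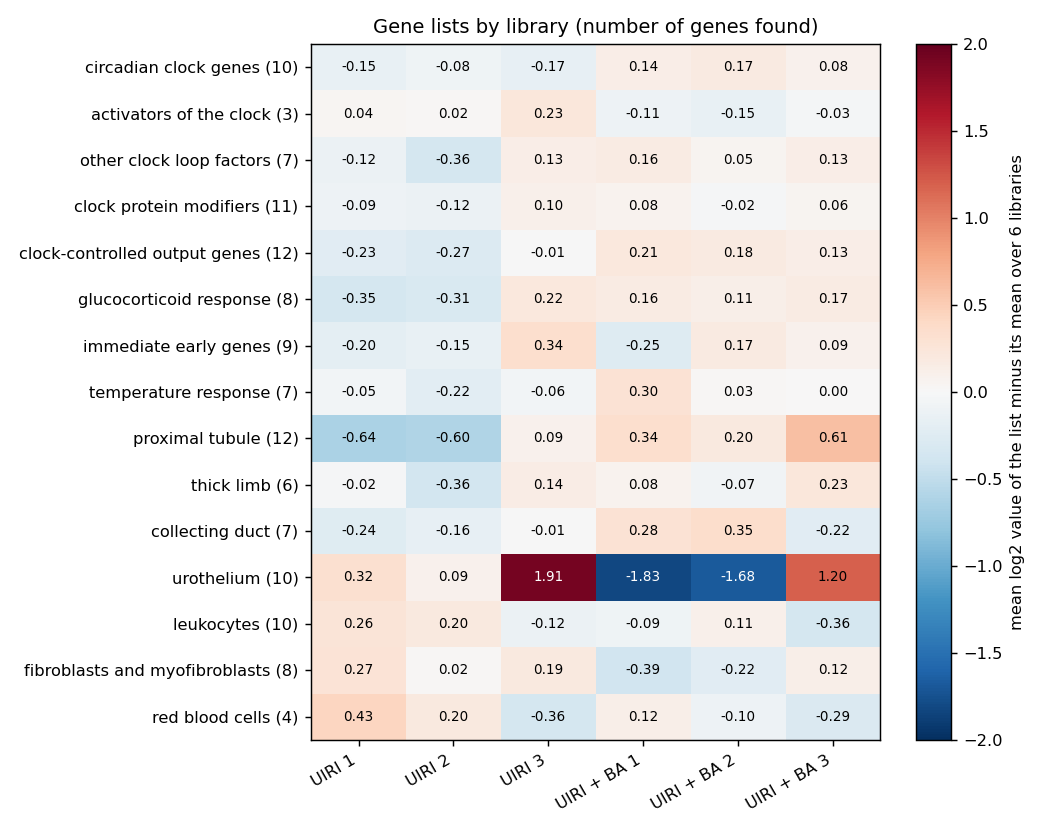
Mean log2 value of each gene list in each library minus its mean over the 6 libraries (colour and printed value, with the number of genes in parentheses). The 10 clock genes run from -0.17 to -0.08 in UIRI and from 0.08 to 0.17 in UIRI + BA, and the proximal tubule markers show the same split by group except that UIRI replicate 3 stands at 0.09.

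The heat map of lists sets the averaged clock profile beside the others. The mean of the 10 members was -0.15, -0.08 and -0.17 log2 units from its centre in UIRI and 0.14, 0.17 and 0.08 with BA, whereas the activators were at 0.04, 0.02 and 0.23 and at -0.11, -0.15 and -0.03. The proximal tubule markers were at -0.64, -0.60 and 0.09 in UIRI and at 0.34, 0.20 and 0.61 with BA.

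Among 12637 other genes with a mean of at least 100 normalized counts, those whose profile over the 6 libraries was closest to the mean profile of the members were Tprkb, Urgcp, Tpcn1, BC034090 and Dlec1. Their root mean square differences from it were 0.0314, 0.0331, 0.0359, 0.0385 and 0.0401 log2 units. With 6 libraries in 2 groups, many genes can come this close.

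Per kilobase of exon, the mean levels in UIRI were 876 normalized counts for Nr1d2, 398 for Tef, 299 for Nr1d1, 258 for Dbp, 158 for Per1, 111 for Per3, 89.7 for Per2, 64.9 for Cry1, 57.3 for Cry2 and 23.5 for Ciart. Neighbours in that order overlapped in their libraries for Nr1d1 and Dbp, for Dbp and Per1, and for Cry1 and Cry2. With BA the order was the same but for Cry2, which stood just above Cry1 with overlapping libraries.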

How the data were processed

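The 6 RNA-seq libraries, 3 of UIRI and 3 of UIRI + BA, were grouped by their labels. According to the methods, the authors used HISAT2 (v2.0.5) for alignment, FeatureCounts for counting and DESeq2 (v1.20.0) for testing. The genome build and annotation are not given in the sources used here. The authors deposited 1 table of a signal per gene and library, in which each count has been scaled by its library's size factor. In it 100% of the values were turned back into whole reads within 0.01. Its columns of the authors' own comparison (log2 fold change, p-value and adjusted p-value), and the deposited enrichment tables, were not used. The labels give the replicates of a group only as numbers, and the paper describes them as independent biological replicates. The p-values measure the spread between these libraries.

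limma 3.58.1 (R 4.3.3) was fitted to log2(value + 1) over all 19176 rows, with an intensity trend, no covariate and Benjamini-Hochberg adjustment. Fold changes are on that scale. DESeq2 1.42.0 and edgeR 4.0.16 (quasi-likelihood) were run on the recovered reads. Other alternatives were quantile, upper quartile and TMM scaling, a filter on low values, a pseudocount of 0.1, no trend, a replicate block, UIRI replicate 3 thinned, and each library left out. Positions came from GENCODE M21 (GRCm38), which held 98.19% of the symbols, and upstream windows from RefSeq.

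The members and lists were chosen with earlier results of these data known. Named genes are all members, activators, loop factors and modifiers, of further lists the extremes and any gene at an unadjusted p below 0.05, the 5 genes of most similar profile, and genes antisense to a member. Beside Thra and Sphk2, these are D930015M05Rik (295 exonic bases shared with Cry2, at most 8.77 normalized counts) and Gm17597 (193 shared with Tef, at most 17.7). C920021L13Rik lies antisense to Ciart with 0 exonic bases shared. Some genes of the lists are not reported here, and the counts leave them out. The immediate early genes beside Per1, Rbm3, Errfi1, the cell type markers named and the urothelial genes listed at 0 were named after their values were seen.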

Additional observations from a re-analysis of the deposited data

How the results depend on the processing

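The direction of 9 members was kept under all 16 alternatives. Cry1 ran from -0.0878 to 0.0024 on the log2 scale with a library left out, turning positive without UIRI replicate 2; the cause was not tested. Between 4 and 6 members, all higher, were at an unadjusted p below 0.05 under each alternative, while the share of all genes higher at that level was lowest at 2.61%, when UIRI replicate 1 was left out, and highest at 13.7%, when UIRI replicate 3 was. The number with no overlap between groups, all higher, was 5 under upper quartile and TMM scaling (6.26% and 7.25% of all genes) and 7 under quantile normalization (7.22%). The count of all genes at an adjusted p below 0.05, which was 0 with limma, was 213 with DESeq2 and ran from 0 to 962 with a library left out, the 962 being without UIRI replicate 3; the cause was not tested. A replicate block gave 6 genes and 0 members. Libraries with the same number deviated with correlations of -0.24, 0.30 and 0.15 over 17249 genes, and those with different numbers from -0.41 to 0.24. Whether libraries of the same number share more than the number was not tested. Ciart rests on 46 to 87 reads a library, and each group on 3 libraries.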
